A study of Mus musculus with 24 samples.

Results

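The mitochondrial ribosomal proteins described here were the genes whose symbol starts with Mrpl (large subunit) or Mrps (small subunit) followed by a digit, without pseudogenes. There were 77 of them among the 15160 genes listed for mouse liver, and all 77 passed the filter on low counts, as did 13336 genes in all. The study asked how dietary methionine restriction changes liver gene expression when NRF2, a transcription factor encoded by Nfe2l2, is missing from hepatocytes. All mice were male, 5 months old and homozygous for a floxed Nfe2l2 allele. They received a Con diet with 0.86% methionine or an MR diet with 0.17% methionine for a stated 8 weeks from 8 weeks of age. For its feeding experiment the paper describes calorimetry and a return to home cages between those 8 weeks and collection. A 4 h fast preceded tissue collection. WT mice (NRF2fl/fl) carried no Cre. Their NRF2 KO littermates (NRF2fl/(alb)) carried 1 Cre transgene driven by the albumin promoter, which acts in hepatocytes. The paper holds resident macrophages to be the most likely source of the Nfe2l2 mRNA left in these livers. Each of the 4 groups held 6 mice with 1 QuantSeq library per liver. The study removed 1 mouse from each WT group, which left 5 mice per diet in WT and 6 in NRF2 KO.

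Mitochondria keep a ribosome of their own, made in part from RNA encoded in the mitochondrial genome (12S and 16S rRNA, the genes mt-Rnr1 and mt-Rnr2) and in part from proteins encoded in the nucleus, made in the cytosol and imported. This ribosome translates the mRNAs of the mitochondrial genome, which encode membrane subunits of the respiratory chain and of ATP synthase, and it is abundant in mitochondria-rich tissues such as liver. Many of its proteins descend from bacterial ribosomal proteins, whereas others have no bacterial counterpart and form a protein shell around a shortened rRNA. By these classes the 77 genes comprised 30 large-subunit proteins with a bacterial homologue and 20 found in mitochondria only, and 16 and 11 small-subunit proteins of the same 2 kinds. Mrps18a and Mrps30 were counted with the large subunit, where their proteins sit in spite of their names.

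The libraries of the 22 mice held 6197291 to 22068338 counts. QuantSeq reads come from the 3′ end of a transcript, about 1 per molecule, so CPM values (counts relative to the library total, with TMM scaling) can be set side by side between genes without a correction for length. The sources give no batch. The 3′ reads of Nfe2l2 do not measure the excised exon 5 and could not check the deletion. They were nevertheless higher in NRF2 KO, at 202 to 339 CPM over both diets, than in 9 of 10 WT mice, at 94.0 to 125 CPM. The library labelled WT CON_7607 held 324 CPM of Nfe2l2, within the NRF2 KO range and against its label, so WT Con results are also given without it. Hepatocyte markers were abundant in each group, with 7 of 8 listed markers summing to between 9.27% and 14.9% of the scaled counts of a mouse.

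In WT, transcripts of the 77 genes together made up 3041 ± 205 CPM on Con and 3248 ± 70.1 CPM on MR (mean ± SD over 5 mice each). In NRF2 KO they made up 3142 ± 110 CPM on Con and 3215 ± 82.6 CPM on MR (6 mice each). These sums overlapped among the groups, running from 2826 to 3276 CPM in WT Con and from 3179 to 3345 CPM in WT MR. Transcripts of the large subunit outnumbered those of the small subunit by a ratio of 2.65 in WT Con, 2.70 in WT MR, 2.73 in NRF2 KO Con and 2.71 in NRF2 KO MR. Mean levels per gene spanned a wide range. Mrpl34 (142 CPM), whose bacterial relative is among the smallest ribosomal proteins, and Mrpl12 (139 CPM), a stalk protein that also binds the mitochondrial RNA polymerase, were highest and were followed by Mrpl17 at 96.1 CPM. All others lay between Mrps10 at 8.56 CPM and Mrpl52 at 90.4 CPM. Mrpl23 (0.789 CPM), Mrps18b (0.686 CPM) and Mrps36 (0.592 CPM) stood apart at the bottom, with 1 to 29, 5 to 21 and 3 to 16 counts per mouse. The protein of Mrps36 is now known as a subunit of the 2-oxoglutarate dehydrogenase complex. Both Mrps36 and Mrpl23 have pseudogenes that can share reads with them, so their values are uncertain.

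**Figure D1:**
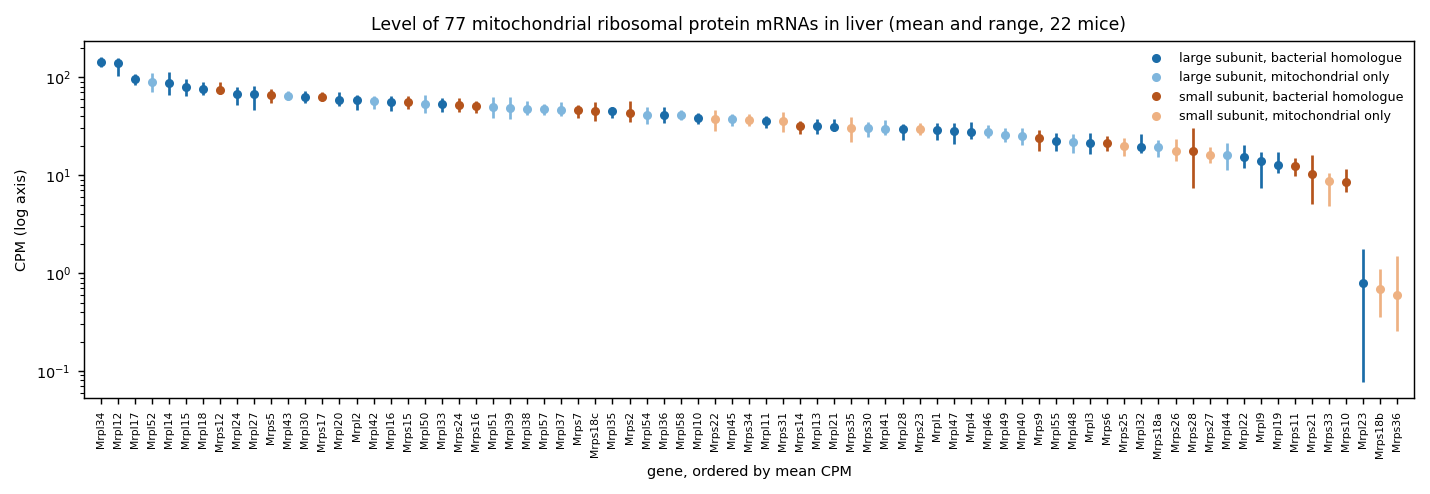
Mean CPM (points, log axis) and lowest to highest value over 22 mice (bars) of the 77 mitochondrial ribosomal protein genes, coloured by subunit and origin. Mrpl34 and Mrpl12 lead at 142 and 139 CPM, and Mrpl23, Mrps18b and Mrps36 lie below 1 CPM.

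Promoter windows from RefSeq on GRCm38.p6, reaching from 250 bases before to 50 bases after the annotated start, were matched for 68 of the 77 genes, in 74 windows. Short motifs of factors associated with nuclear genes for mitochondrial proteins were searched on both strands. CCGGAAGT, bound by ETS factors such as GABP, was in 16.2% of the 74 windows and in 3.89% of all 32851 windows of the table. AAGATGGC, a YY1 motif, was in 16.2% against 2.75%. GCATGCGC, part of the motif of nuclear respiratory factor 1 (the protein NRF1, unrelated to NRF2), was in 10.8% against 2.71%, and the full palindromic NRF1 motif, which contains it, in 4.05% against 0.971%. The E-box CACGTG was in 9.46% against 7.15%, but 3 of its 7 member windows were overlapping starts of Mrpl2, and counted by gene it was in 7.35% of the 68 genes against 8.09% of all genes. The antioxidant response element core TGACNNNGC, to which NRF2 binds, was in 18.9% of windows against 12.4%. TGATGNAA, a form of the ATF4 composite element, was in 0 member windows and in 3.97% of all windows. A further motif, that of ZNF143 and THAP11 (capitals in the Mrpl24 window, where 2 of its positions are free to vary), was chosen after the sequences were seen and was in 6.76% against 1.81%. All members are protein-coding, and most motifs were more frequent in windows of protein-coding genes than in all windows. Those coding shares were 5.15% for ETS, 3.05% for YY1, and 3.51% and 1.33% for the short and full NRF1 motifs. They were 7.84% for the E-box, 13.0% for the antioxidant response element, 3.6% for the ATF4 element and 2.54% for ZNF143 and THAP11.

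The windows printed here, each from 210 bases before to 30 bases after the start, belong to genes on which the results turn. Mrpl12 (chr11:120484427-120484666, plus strand), Mrpl50 (chr4:49521054-49521293, minus strand) and Mrps9 (chr1:42851023-42851262, plus strand) were called higher on MR in both genotypes. Some fits without 1 mouse lost the call of Mrps9 in WT and that of Mrpl12 in NRF2 KO. Mrpl24 (chr3:87919334-87919573, plus strand) and Mrpl14 (chr17:45686139-45686378, plus strand) were higher on MR in WT, Mrps18a (chr17:46110794-46111033, plus strand) was called lower on MR in NRF2 KO in a call that most fits without 1 mouse lost, and Mrpl34 (chr8:71464716-71464955, plus strand) had the highest level. They are written 5′ to 3′ on the strand of the gene, with every match to the 8 motifs above in capitals.
Mrpl12: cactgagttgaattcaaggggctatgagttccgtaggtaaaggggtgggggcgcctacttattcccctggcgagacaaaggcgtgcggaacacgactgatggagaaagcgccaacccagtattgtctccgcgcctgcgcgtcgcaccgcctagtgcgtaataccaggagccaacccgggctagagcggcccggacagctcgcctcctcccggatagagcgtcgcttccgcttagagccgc
Mrpl50: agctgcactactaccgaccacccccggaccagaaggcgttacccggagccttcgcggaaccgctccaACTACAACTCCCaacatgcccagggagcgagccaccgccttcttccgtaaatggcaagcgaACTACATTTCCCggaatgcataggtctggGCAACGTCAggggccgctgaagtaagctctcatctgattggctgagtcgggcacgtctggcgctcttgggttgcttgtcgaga
Mrps9: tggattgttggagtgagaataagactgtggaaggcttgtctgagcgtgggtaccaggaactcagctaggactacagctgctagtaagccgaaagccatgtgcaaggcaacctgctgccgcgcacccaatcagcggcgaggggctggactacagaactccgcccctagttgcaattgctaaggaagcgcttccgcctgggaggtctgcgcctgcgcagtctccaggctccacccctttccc
Mrpl24: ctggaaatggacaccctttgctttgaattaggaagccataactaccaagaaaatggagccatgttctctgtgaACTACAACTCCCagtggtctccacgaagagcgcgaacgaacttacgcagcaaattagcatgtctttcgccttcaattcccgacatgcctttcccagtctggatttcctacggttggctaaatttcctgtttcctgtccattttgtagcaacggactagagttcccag
Mrpl14: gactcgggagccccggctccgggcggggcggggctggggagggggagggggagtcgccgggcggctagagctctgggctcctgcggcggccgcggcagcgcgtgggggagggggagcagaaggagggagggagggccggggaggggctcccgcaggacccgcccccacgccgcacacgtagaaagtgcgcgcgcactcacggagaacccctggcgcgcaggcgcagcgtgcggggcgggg
Mrps18a: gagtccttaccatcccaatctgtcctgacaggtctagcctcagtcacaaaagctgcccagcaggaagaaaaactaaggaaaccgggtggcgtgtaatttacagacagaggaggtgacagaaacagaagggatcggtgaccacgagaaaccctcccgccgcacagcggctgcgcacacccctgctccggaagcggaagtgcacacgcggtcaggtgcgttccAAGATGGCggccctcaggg
Mrpl34: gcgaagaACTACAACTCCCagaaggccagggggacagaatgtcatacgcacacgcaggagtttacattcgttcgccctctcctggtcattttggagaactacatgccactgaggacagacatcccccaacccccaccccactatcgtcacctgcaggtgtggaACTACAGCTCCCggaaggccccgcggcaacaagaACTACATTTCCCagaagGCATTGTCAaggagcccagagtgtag
Mrpl50, Mrpl24 and Mrpl34 hold the ZNF143 and THAP11 motif, in 2, 1 and 3 copies. Both Mrpl50 and Mrpl34 also hold 1 antioxidant response element core, on the opposite strand. Mrps18a holds 1 YY1 motif just after its start, and the windows of Mrpl12, Mrps9 and Mrpl14 hold none of the 8 motifs.

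To ask what methionine restriction did to these genes in mice with intact NRF2, WT MR was compared with WT Con. Of the 77 genes, 8 were higher on MR (10.4%) and 0 were lower, while 6.91% of all 13336 genes tested were called higher and 6.91% lower at an adjusted p under 0.05 (edgeR quasi-likelihood test with Benjamini-Hochberg adjustment over all genes). The genes that rose were Mrps2, Mrpl15, Mrpl14, Mrps35, Mrpl12, Mrpl24, Mrpl50 and Mrps9, by 1.19- to 1.30-fold. The median log2 fold change of the 77 genes was 0.06, beside -0.01 for all genes tested, and 53 of the 77 lay above 0 (68.8%, beside 49.0% of all genes). No member changed by as much as 0.5 on the log2 scale. In whole liver, fewer cells of a type and less RNA per cell cannot be told apart. Scaled by library size only, the median of all genes moved up by 0.09 on the log2 scale and 16 of the 77 genes were called, all of them higher. The median of the members lay 0.08 above that of all genes under this scaling and 0.07 above it under TMM. The share of all genes called under this scaling is not given here, so the 16 calls are not a result about the members.

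Mrpl15, a protein of the large subunit with a bacterial homologue (chr1:4773206-4785739), had the smallest adjusted p. In WT Con its level was 67.9, 69.0, 67.7, 64.7 and 71.6 CPM in the 5 mice, and in WT MR it was 92.1, 80.3, 86.1, 87.1 and 96.0 CPM. All WT MR mice were above all WT Con mice. This was a log2 fold change of 0.37 ± 0.06 (SE; adjusted p = 0.00043, edgeR).

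Mrpl12 (chr11:120484613-120489065) rose from an already high level. Its WT Con mice had 132, 125, 130, 103 and 119 CPM, and its WT MR mice had 152, 148, 156, 156 and 153 CPM. The groups did not overlap, and the lowest WT Con value was that of CON_7607. Its log2 fold change was 0.33 ± 0.07 (edgeR, adjusted p = 0.0019), and 0.27 (adjusted p = 0.0046) without that mouse. A gene on the opposite strand, Gm16755, overlaps its last 500 bases.

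Mrpl14 (chr17:45686322-45698495), a large-subunit protein at the face that meets the small subunit, had 89.9, 80.5, 87.9, 65.5 and 79.5 CPM in WT Con. In WT MR it had 92.9, 104, 114, 97.8 and 107 CPM. The groups were separate by a narrow gap, from 89.9 to 92.9 CPM. On the log2 scale Mrpl14 rose by 0.35 ± 0.08 (edgeR, adjusted p = 0.0069), and by 0.29 (adjusted p = 0.018) without CON_7607, which was lowest.

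Mrps2 (chr2:28468066-28471178), which in bacteria is among the last proteins to join the small subunit, had 34.8, 38.9, 39.9, 34.6 and 34.9 CPM in WT Con. Its WT MR mice had 43.8, 43.9, 46.3, 56.7 and 48.6 CPM. No values overlapped, and 1 WT MR mouse stood above the rest. Mrps2 had the largest called log2 fold change, 0.38 ± 0.08 (edgeR, adjusted p = 0.0035).

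Mrpl24 (chr3:87919506-87923672), a large-subunit protein that in bacteria starts assembly, had 61.1, 58.5, 63.2, 53.5 and 52.1 CPM in WT Con. It had 64.6, 75.4, 78.8, 72.2 and 69.2 CPM in WT MR. The groups did not overlap, and the nearest mice were at 63.2 and 64.6 CPM. Its log2 fold change was 0.32 ± 0.08 (edgeR, adjusted p = 0.0067). Rrnad1 overlaps the end of Mrpl24 on the opposite strand.

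Mrpl50 (chr4:49512596-49521093), a large-subunit protein found in mitochondria only, had 50.8, 48.7, 43.4, 46.8 and 43.1 CPM in WT Con. Its WT MR values were 51.7, 58.5, 59.5, 54.8 and 56.6 CPM. Here too the groups were separate, and the change was 0.27 ± 0.07 on the log2 scale (edgeR, adjusted p = 0.0087).

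Both small-subunit genes that completed the list were less firmly separated. Mrps35 (chr6:147042764-147073991), found in mitochondria only, had 30.5, 24.1, 29.0, 21.6 and 22.6 CPM in WT Con and 28.7, 32.3, 34.0, 32.7 and 35.3 CPM in WT MR, and its groups overlapped. Its log2 fold change was 0.35 ± 0.09 (edgeR, adjusted p = 0.010), and it missed the threshold when only the WT groups were fitted (adjusted p = 0.0501). Mrps9 (chr1:42851233-42905683), whose bacterial relative touches the tRNA, had 24.2, 22.7, 21.97, 17.8 and 19.7 CPM in WT Con and 24.4, 24.5, 25.5, 26.8 and 25.8 CPM in WT MR. These groups nearly met, at 24.2 and 24.4 CPM. The log2 fold change of Mrps9 was 0.25 ± 0.08 (edgeR, adjusted p = 0.040), and 0.20 (adjusted p = 0.10) without CON_7607. Mrps9 also missed the threshold when only the WT groups were fitted.

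**Figure D2:**
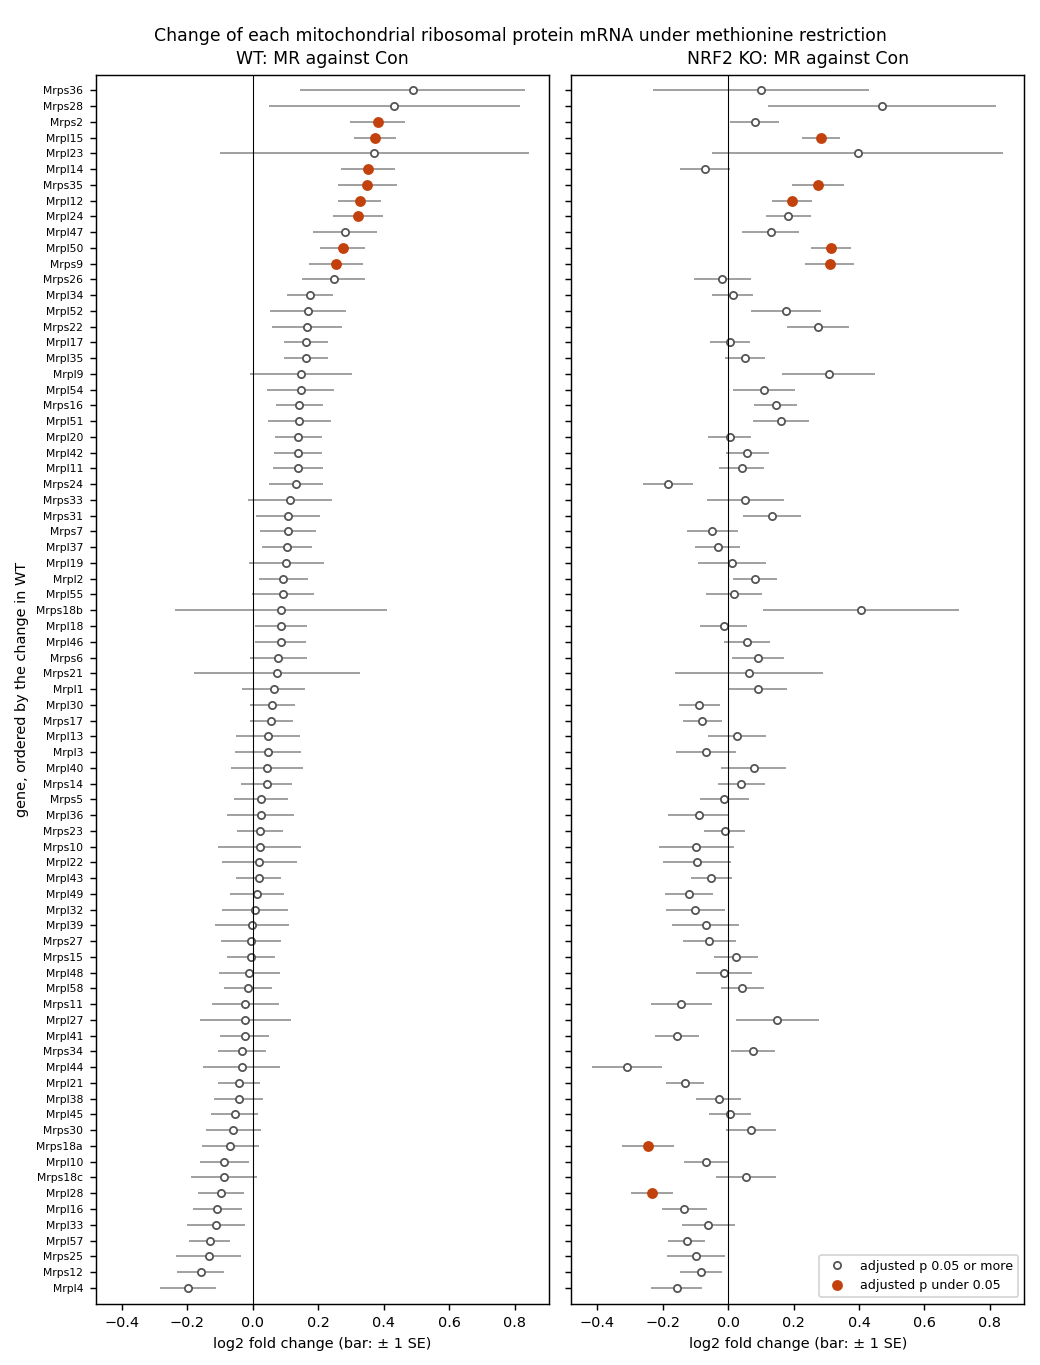
Log2 fold change of MR against Con (horizontal axis, bars ± 1 SE) for each of the 77 genes, ordered by the change in WT, with WT on the left and NRF2 KO on the right. Filled points passed an adjusted p under 0.05: 8 genes in WT, all higher, and 7 in NRF2 KO, of which 5 were higher and 2 lower. With scaling by library size only, 16 and 21 genes passed, all higher, while the median of all genes moved up by 0.09 and 0.16. The share of all genes that passed under this scaling is not given here.

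Without CON_7607, 7 genes were called higher in WT, with Mrps9 lost, and Mrps12 was called lower (shares of all genes without that mouse are not given here). Of the genes not given above, Mrpl15, Mrps2, Mrpl24, Mrpl50 and Mrps35 then had log2 fold changes of 0.36, 0.36, 0.30, 0.28 and 0.30 (edgeR, adjusted p from 0.0017 to 0.028). Mrps12 (chr7:28739641-28741820), which lines the decoding centre, was at -0.21 ± 0.07 without that mouse (adjusted p = 0.0496) and at -0.16 ± 0.07 with all 5 WT Con mice (edgeR, adjusted p = 0.14). The lowest value in WT was that of Mrpl4, -0.20 ± 0.09 (adjusted p = 0.13). At the other end lay Mrps36, at 0.49 ± 0.34 with very few counts, and Mrps28, at 0.43 ± 0.38, and neither passed the test. Groups that did not overlap were found for 9 of the 77 genes, all higher on MR (11.7%, beside 5.32% of all genes higher without overlap). They were 7 of the 8 called genes, without Mrps35, and Mrps26 and Mrpl34. The share of all genes lower without overlap is not given here, so the absence of lower members is not a result about them. Mrpl34 had 126 to 137.2 CPM in WT Con and 137.3 to 156 CPM in WT MR (log2 fold change 0.17 ± 0.07, edgeR adjusted p = 0.092), and Mrps26 had a log2 fold change of 0.25 (adjusted p = 0.087).

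Markers of several other liver cells fell with MR in WT. Of 9 macrophage markers, 6 were called lower, where 6.91% of all genes were. The macrophage list summed to 451 to 598 CPM in WT Con and 358 to 403 CPM in WT MR. Among 8 stellate cell markers 5 were lower (407 to 683 CPM, then 355 to 442 CPM), and among 5 bile duct markers tested 4 were lower (49.0 to 72.6 CPM, then 20.9 to 28.3 CPM). Without CON_7607 the markers called lower in WT numbered 5, 4 and 4 in these lists. In NRF2 KO they numbered 3, 4 and 1, where 6.34% of all genes were called lower. None of their markers was at 0 in all mice. Hepatocyte markers had median log2 fold changes on MR of -0.28 in WT and -0.18 in NRF2 KO. Of the 7 tested, Apoa1 was called lower in WT, and Apoa1 and Serpina1c in NRF2 KO. Without CON_7607, Ahsg was also called, as higher, in both genotypes. Of 8 endothelial markers, 0 were called in WT (median 0.00), and Kdr was called higher in NRF2 KO. The part of cell composition in the changes of the ribosomal protein genes was not tested.

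In NRF2 KO the same diet comparison called 7 of the 77 genes. Of these, 5 were higher (6.49%, beside 6.23% of all genes) and 2 were lower (2.6%, beside 6.34% of all genes). Those that rose were Mrpl50, Mrps9, Mrpl15, Mrps35 and Mrpl12, by 1.14- to 1.24-fold, and those that fell were Mrpl28 and Mrps18a. The median log2 fold change was 0.01, beside 0.00 for all genes, and 43 of the 77 genes lay above 0 (55.8%, beside 49.2% of all genes). The 5 genes that rose were also the only members without overlap between NRF2 KO Con and NRF2 KO MR (6.49%, beside 2.62% of all genes higher without overlap). The share of all genes lower without overlap is not given here. The scaling mattered here: by library size only, the median of all genes moved up by 0.16 on the log2 scale. Under it 21 members were called higher and 0 lower. The median of the members lay 0.02 above that of all genes under either scaling. The share of all genes called by library size only is not given here, so the 21 calls are not a result about the members.

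Mrpl50 changed most firmly in NRF2 KO. Its lowest, median and highest values were 45.9, 49.1 and 54.996 CPM in NRF2 KO Con and 58.1, 62.3 and 65.5 CPM in NRF2 KO MR. It rose by 0.31 ± 0.06 on the log2 scale (edgeR, adjusted p = 0.0016). Mrpl15 went from 68.6, 72.7 and 82.9 CPM to 87.2, 89.4 and 92.7 CPM in the same order, a log2 fold change of 0.28 ± 0.06 (edgeR, adjusted p = 0.0024). Both genes kept a gap between the highest Con mouse and the lowest MR mouse.

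Mrps9 had 19.4, 21.8 and 25.4 CPM as lowest, median and highest values in NRF2 KO Con and 26.2, 27.6 and 29.1 CPM in NRF2 KO MR, for a log2 fold change of 0.31 ± 0.07 (edgeR, adjusted p = 0.0077). Mrps35 had 26.6, 28.6 and 30.1 CPM, then 31.2, 34.5 and 39.0 CPM, for 0.28 ± 0.08 (edgeR, adjusted p = 0.025). Mrpl12 had 126, 130 and 140 CPM, then 144, 150 and 158 CPM, for 0.19 ± 0.06 (edgeR, adjusted p = 0.034). In all 3 genes every NRF2 KO MR mouse was above every NRF2 KO Con mouse. Mrps35 was lost without mouse KO MR_7632 (adjusted p = 0.055), and Mrpl12 was lost in 7 of the 22 fits that left out 1 mouse.

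The genes that fell in NRF2 KO belong to the large subunit. Mrpl28 (chr17:26123500-26126613), with a bacterial homologue, had 29.97, 31.1 and 33.3 CPM as lowest, median and highest values in NRF2 KO Con and 22.9, 27.1 and 30.5 CPM in NRF2 KO MR. These groups overlapped slightly, and the log2 fold change was -0.23 ± 0.06 (edgeR, adjusted p = 0.019). Mrps18a (chr17:46110986-46128910), named for the small subunit but placed in the large one, had 18.1, 20.9 and 22.3 CPM, then 15.4, 17.1 and 19.2 CPM, for -0.24 ± 0.08 (edgeR, adjusted p = 0.044). This call was lost in 14 of 22 fits that left out 1 mouse and under 5 of 8 other settings. Scaled by library size only, both were at -0.08 with adjusted p values of 0.53 and 0.56. Without mouse KO MR_7625 neither passed and the count of members called was 4, and without mouse KO CON_7622 it was 11. The shares of all genes called in these fits are not given here. Mrpl44, an RNase III-like protein of the large subunit, had the lowest value, -0.31 ± 0.11, and did not pass (adjusted p = 0.058).

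**Figure D3:**
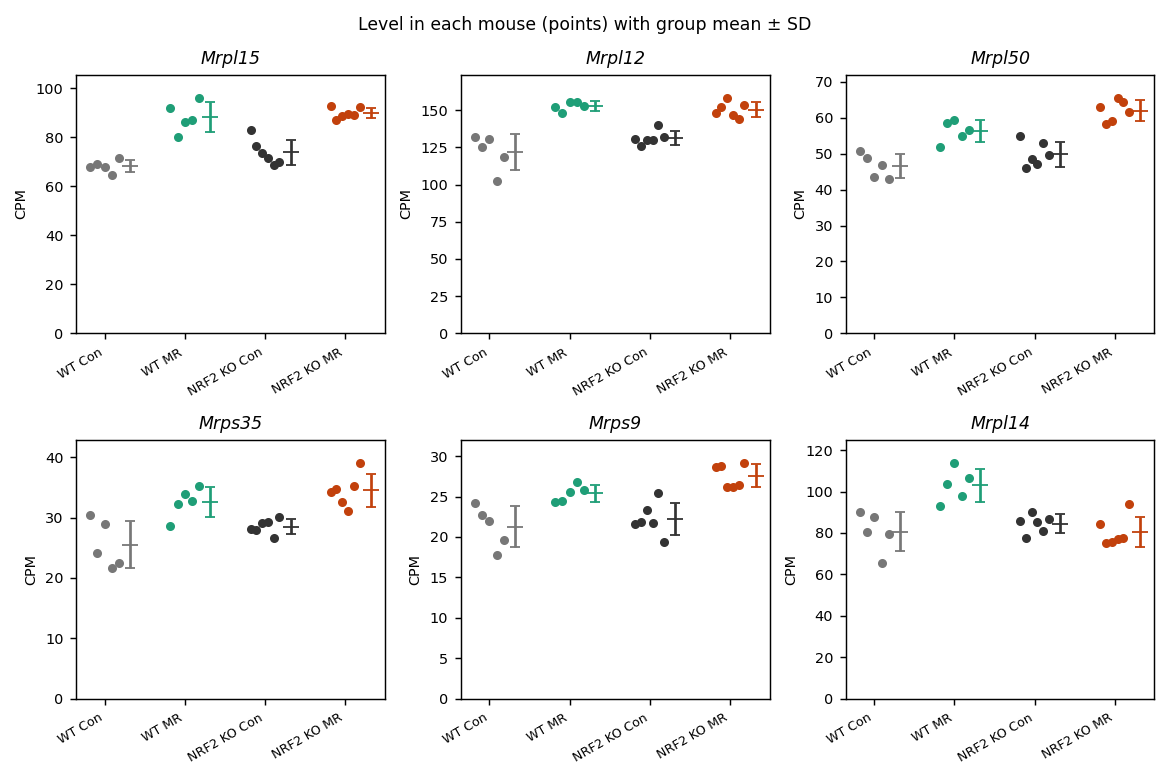
CPM in each mouse (points) with group mean ± SD for the 5 genes called higher on MR in both genotypes and for Mrpl14, linear axes from 0. For Mrpl15, MR mice lie at 80.3 to 96.0 CPM and Con mice at 64.7 to 82.9 CPM, while Mrpl14 is at 92.9 to 114 CPM in WT MR and at 75.0 to 93.9 CPM in NRF2 KO MR.

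The responses of both genotypes, which share no mice, were set beside each other. Mrpl15, Mrpl12, Mrpl50, Mrps35 and Mrps9 were called higher in both (6.49% of members, beside 5.88% of all genes called in both). Over the 77 genes the log2 fold changes in WT and NRF2 KO had a Pearson r of 0.66, a description across genes that are not independent replicates, beside 0.70 over all genes tested. The sign was the same for 53 genes (68.8%, beside 71.7% of all genes). The likeness of the members' responses was close to that of genes in general.

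The difference between the genotypes in the response was tested as an interaction of genotype and diet. None of the 77 genes passed in edgeR (0.045% of all genes did), 3 had an unadjusted p under 0.05 (3.9%, beside 7.56% of all genes), and DESeq2 and limma also called 0. The 3 genes were Mrpl14, Mrps24 and Mrps2, the last pair named after their values were seen. Mrpl14 had the largest value, with a log2 difference of -0.42 ± 0.11 between the response in NRF2 KO and that in WT (adjusted p = 0.29, 95% interval -0.64 to -0.20), and -0.36 (adjusted p = 0.38) without CON_7607. Mrps2, called higher on MR in WT, was at 0.08 ± 0.07 in NRF2 KO, with a difference of -0.30 ± 0.11 (adjusted p = 0.50). Mrpl24 was at 0.18 ± 0.07 in NRF2 KO (adjusted p = 0.078), and its difference was -0.14 ± 0.10 with a 95% interval from -0.34 to 0.06. A call in WT and none in NRF2 KO was therefore not shown to be a difference for any of these genes. The median interaction of the 77 genes was -0.05, beside 0.00 for all genes, and turned to 0.01 with scaling by library size only.

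**Figure D4:**
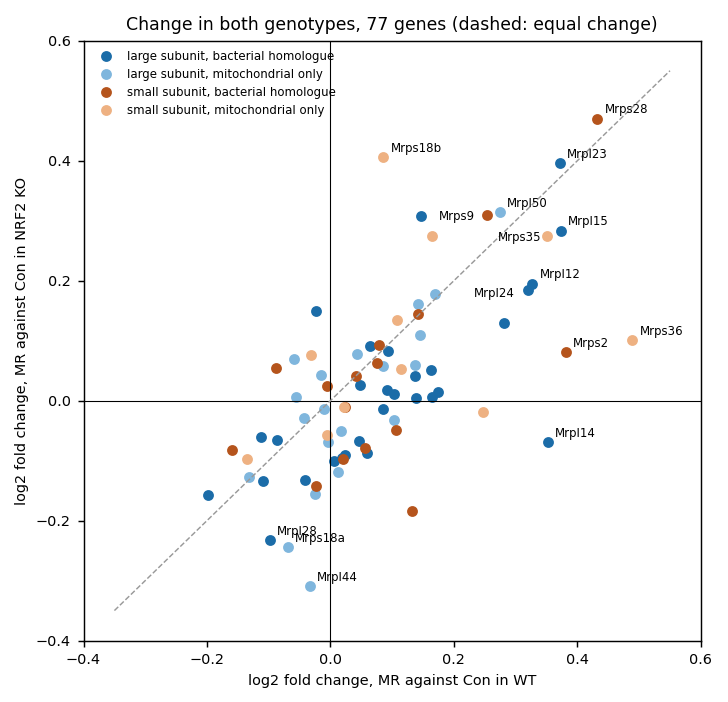
Log2 fold change on MR in WT (horizontal axis) against that in NRF2 KO (vertical axis) for the 77 genes, coloured by subunit and origin, with a dashed line of equal change. The changes in both genotypes have a Pearson r of 0.66, beside 0.70 over all genes tested, which does not measure closeness to that line. Mrpl14 lies farthest below the line among the called genes, at 0.35 in WT and -0.07 in NRF2 KO. With scaling by library size only, the median over all genes moves up by 0.09 and 0.16.

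To ask what the loss of NRF2 did at a fixed diet, NRF2 KO was compared with WT. On Con, 0 of the 77 genes were called in edgeR, beside 2.07% of all genes, and 6 had an unadjusted p under 0.05 (7.79%, beside 14.4% of all genes). DESeq2 and limma also called 0. The median log2 fold change was 0.04, and 0.02 without CON_7607. The extremes were Mrps18b at -0.43 ± 0.31 and Mrps2 at 0.22 ± 0.08 (adjusted p = 0.18).

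On MR, 1 of the 77 genes was lower in NRF2 KO (1.3%, beside 1.38% of all genes) and 0 were higher (0.555% of all genes). This gene was Mrpl14, with 92.9, 104, 114, 97.8 and 107 CPM in WT MR and a lowest, median and highest value of 75.0, 77.2 and 93.9 CPM in NRF2 KO MR. A single NRF2 KO MR mouse reached the WT MR range. Hepatocyte markers moved with genotype on this diet: their summed share was 9.27% to 11.1% in WT MR and 11.5% to 13.7% in NRF2 KO MR, without overlap, and 1 of 7 (Apoa1) was called higher, with a median log2 fold change of 0.32 over the 7. On Con the summed share of these markers was 9.88% to 13.2% in WT and 12.9% to 14.9% in NRF2 KO, with overlap. There 0 of 7 were called, with a median log2 fold change of 0.19. The part of hepatocyte markers in the Mrpl14 difference was not tested. Mrpl14 differed by -0.35 ± 0.08 on the log2 scale (edgeR, adjusted p = 0.013), a level 0.782 times that of WT MR. With all 24 mice it was -0.30 (adjusted p = 0.074). The mouse WT MR_7612, which the study removed, had 83.0 CPM of Mrpl14. Mrpl45, which ties the ribosome to the inner membrane, was the only member without overlap between the genotypes on MR, with 31.5 to 35.7 CPM in WT MR and 37.4 to 41.7 CPM in NRF2 KO MR (1.3%, beside 1.69% of all genes higher without overlap). Its log2 fold change of 0.21 ± 0.07 did not pass (edgeR, adjusted p = 0.13). The share of all genes lower without overlap is not given here. The median of the 77 genes was -0.02 and turned to 0.01 with scaling by library size only.

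By class, the 8 genes called in WT comprised 4 of 30 large-subunit proteins with a bacterial homologue, 1 of 20 large-subunit proteins found in mitochondria only, 2 of 16 small-subunit proteins with a bacterial homologue and 1 of 11 found in mitochondria only. Median log2 fold changes in the same order were 0.09, 0.00, 0.07 and 0.11 in WT and 0.01, 0.00, 0.03 and 0.08 in NRF2 KO. The paralogues Mrps18a, Mrps18b and Mrps18c, which occupy separate sites on the ribosome, had log2 fold changes in NRF2 KO of -0.24 ± 0.08, 0.41 ± 0.30 and 0.05 ± 0.09. Mrps18c and Mrps30 were not called in any comparison, with changes on MR of -0.09 ± 0.10 and -0.06 ± 0.08 in WT. Mrpl58, a peptidyl-tRNA hydrolase that frees stalled ribosomes, was at -0.01 ± 0.07 in WT and 0.04 ± 0.07 in NRF2 KO and was among the steadiest members, with 36.5 to 46.5 CPM over the 22 mice.

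Mrps28 (chr3:8802146-8923918), a small-subunit protein with a bacterial homologue, varied more between mice of a group than any other member. Its level was 21.1, 22.4, 15.1, 11.2 and 7.65 CPM in the WT Con mice and 30.5, 25.6, 18.5, 13.9 and 13.4 CPM in the WT MR mice. In NRF2 KO the lowest, median and highest values were 7.54, 14.0 and 26.2 CPM on Con and 7.41, 19.3 and 29.8 CPM on MR. All 4 groups therefore spanned much of the same range, and 92 to 711 counts per mouse lay behind these values. The SD within groups was 0.62 on the log2 scale, beside a median of 0.13 over the 77 genes. Among 6740 genes with means from 8 to 150 CPM, the median SD was 0.17 and 1.36% were above Mrps28. Taken simply over the deviations from group means, the SD was 0.57 for Mrps28, 0.47 for Mrpl23 and 0.37 for Mrps21. The changes of Mrps28 on MR, 0.43 ± 0.38 in WT and 0.47 ± 0.35 in NRF2 KO, did not pass (edgeR, adjusted p = 0.51 and 0.42).

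The genes whose deviations from the group means were most like those of Mrps28 over the 22 mice were Cops7a (Pearson r = 0.96), Snhg6 (0.95), Hacd2 (0.94), Rnf130 (0.93) and Exoc6 (0.93). These values describe mice that share library, depth and group means and were chosen from all genes tested. Of the other members, Mrpl27 was most like it (0.81), followed by Mrps31 (0.61). Mrpl27 had 53.1 to 81.4 CPM in WT Con and 45.8 to 77.6 CPM in NRF2 KO Con. The same measure between Mrps28 and the total count of the library was 0.24.

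**Figure D5:**
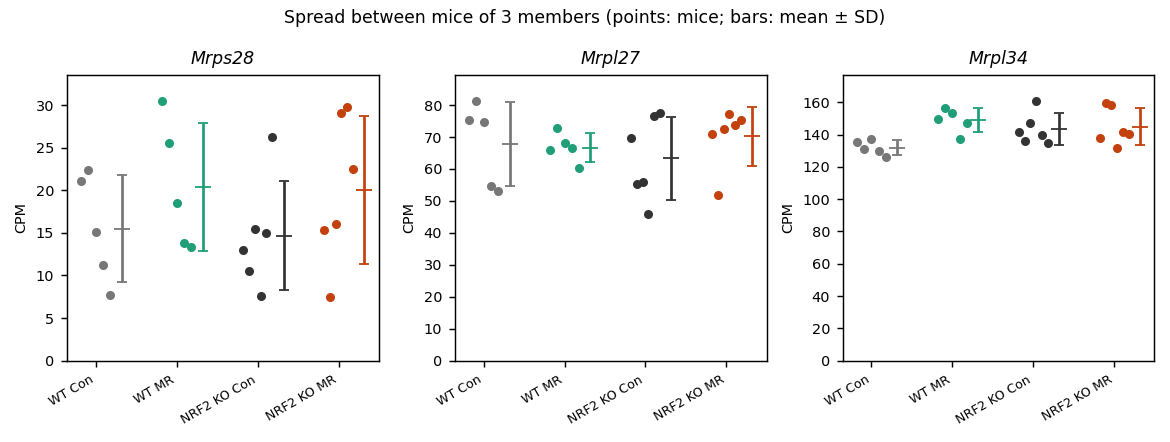
CPM in each mouse (points) with group mean ± SD (bars) for Mrps28, Mrpl27 and Mrpl34, linear axes from 0. Mrps28 runs from 7.41 to 30.5 CPM with broad overlap among the 4 groups, whereas Mrpl34 runs from 126 to 161 CPM.

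The other genes needed to build and use this ribosome were described from fixed lists. Of 5 mitoribosomal proteins listed under other names, 0 passed in either genotype on MR in edgeR. Among 26 assembly factors, 2 rose on MR in WT (beside 6.91% of all genes), 2 in NRF2 KO (beside 6.23%) and 0 fell in either. Tfb1m, which methylates 12S rRNA, and Mtg1, a GTPase of large-subunit assembly, rose in WT, by 0.43 ± 0.14 and 0.52 ± 0.12 on the log2 scale (edgeR, adjusted p = 0.039 and 0.0059). In NRF2 KO, Mettl17, a small-subunit assembly factor, and Fastkd2, which binds 16S rRNA, rose by 0.37 ± 0.11 and 0.35 ± 0.10 (adjusted p = 0.028 and 0.018). In the other genotype Tfb1m and Mtg1 were at 0.08 ± 0.12 and 0.10 ± 0.11 (adjusted p = 0.74 and 0.58), and Mettl17 and Fastkd2 at 0.31 ± 0.12 and 0.19 ± 0.11 (adjusted p = 0.090 and 0.25). None of the 4 passed the interaction test, with adjusted p values of 0.52 to 0.97. The medians of this list were 0.11 in WT and 0.08 in NRF2 KO.

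Among 17 mitochondrial translation factors tested, 1 was called higher in WT (beside 6.91% of all genes), the insertase Oxa1l. It rose by 0.25 ± 0.08 (edgeR, adjusted p = 0.0497), but missed the threshold without CON_7607 (0.20, adjusted p = 0.12). In NRF2 KO 1 was called higher and 1 lower, beside 6.23% and 6.34% of all genes. The release factor Mtrf1l rose by 0.43 ± 0.10 (edgeR, adjusted p = 0.0076). Gfm2, which recycles ribosomes, fell by 0.23 on the log2 scale (SE 0.07, adjusted p = 0.028). In WT these genes were at 0.13 ± 0.12 and -0.02 ± 0.08 (edgeR, adjusted p = 0.49 and 0.92). Neither passed the interaction test (adjusted p = 0.69 and 0.64). Gfm2 was also lower in NRF2 KO than in WT on MR, at 17.8 ± 1.02 CPM (SD, n = 6) against 23.3 ± 1.99 CPM (n = 5), a log2 fold change of -0.38 ± 0.07 (edgeR, adjusted p = 0.0031). Of 18 genes of mitochondrial transcription and RNA processing, 2 rose in WT, beside 6.91% of all genes. Grsf1 and Tbrg4 each rose by 0.30 on the log2 scale (edgeR, adjusted p = 0.0042 and 0.014). In NRF2 KO they were at 0.04 ± 0.06 and 0.03 ± 0.07 (edgeR, adjusted p = 0.73 and 0.85). Neither passed the interaction test (adjusted p = 0.45 and 0.54). Hsd17b10, a dehydrogenase that is also a subunit of mitochondrial RNase P, fell in WT by 0.54 (SE 0.15, adjusted p = 0.022) and in NRF2 KO by 0.44 (SE 0.14, adjusted p = 0.040). It was the only gene of the 18 called lower, beside 6.91% of all genes in WT and 6.34% in NRF2 KO.

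Of 10 RNAs of the mitochondrial genome itself, 1 was called lower on MR in WT (beside 6.91% of all genes) and 4 in NRF2 KO (beside 6.34%), and 0 were called higher in edgeR. Together they took 13.1% to 21.8% of the scaled counts in WT Con and 12.3% to 15.6% in WT MR. In NRF2 KO they took 12.5% to 17.7% on Con and 10.4% to 13.6% on MR, so the diets overlapped in both genotypes. Their median log2 fold changes were -0.35 in WT and -0.37 in NRF2 KO. mt-Nd6, the gene on the other strand of the mitochondrial genome, fell in WT by 0.58 (SE 0.16, edgeR adjusted p = 0.019) and in NRF2 KO by 0.79 (SE 0.15, adjusted p = 0.0013). Its level was low for this genome, with group means of 6.99 to 14.4 CPM beside 17583 to 29238 CPM for mt-Nd2. Both rRNAs passed in NRF2 KO, with log2 fold changes of -0.62 ± 0.16 for mt-Rnr1 (adjusted p = 0.013) and -0.58 ± 0.17 for mt-Rnr2 (adjusted p = 0.025), as did mt-Nd2 at -0.57 ± 0.14 (adjusted p = 0.0070). In WT they were at -0.42 ± 0.18 (adjusted p = 0.11), -0.38 ± 0.18 (adjusted p = 0.17) and -0.31 ± 0.15 (adjusted p = 0.16). Mitochondrial rRNAs carry only short A tails, so their counts in a library primed on poly(A) do not measure the amount of ribosome.

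Of 11 regulators of mitochondrial biogenesis, 1 rose and 1 fell in WT, beside 6.91% of all genes in each direction. Esrra, an orphan nuclear receptor that switches on genes of oxidative metabolism, rose in WT from 11.97 ± 1.48 to 16.03 ± 1.71 CPM (SD, n = 5 each), a log2 fold change of 0.42 ± 0.10 (edgeR, adjusted p = 0.0063). In NRF2 KO, Esrra was at 16.4 ± 1.37 CPM on Con and 15.6 ± 1.45 CPM on MR (n = 6 each), and on Con it was higher than in WT by 0.45 ± 0.09 on the log2 scale (adjusted p = 0.0085). The interaction of genotype and diet for Esrra was -0.49 ± 0.13 and did not pass (edgeR, adjusted p = 0.29), so a difference between the genotypes in its response was not shown. Mycn, a MYC family factor with under 1 CPM in each group on average, was lower on MR in both genotypes (edgeR, adjusted p = 0.0033 in WT and 0.00084 in NRF2 KO). Without CON_7607, Oxa1l was the only gene of these lists to lose a call in WT, and Esrra on Con remained higher in NRF2 KO than in WT (0.46, adjusted p = 0.013).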

How the data were processed

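The authors made 1 QuantSeq 3′ library from each liver and mapped and counted its reads with the kit maker's FWD pipeline. The submitters' processing notes name GRCm38, R 3.4.3 and DESeq2 1.18.1, and the aligner and annotation are not given in the sources used here. The deposited values are raw read counts per gene, and a normalized signal that the authors made by dividing the counts by 1 size factor per mouse. Gene positions and missing symbols came from GENCODE M21 (GRCm38).

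Counts of all genes were fitted in edgeR 4.0.16 (R 4.3.3) with TMM scaling, the filterByExpr filter and the quasi-likelihood F-test (robust options), as 1 model of 4 group means over 22 mice, and p-values were adjusted over 13336 genes. The mice WT CON_7604 and WT MR_7612, which the study removed as outliers, were left out. SE is that of the fitted log2 fold change, and a 95% interval is 1.96 SE to each side. Depth was 6197291 to 22068338 counts per mouse, and precision is the spread between mice. The model was also run on counts simulated from its own dispersions, with changes placed in WT MR only. The outcome is not given here, and no mislabelled mouse was simulated.

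Alternatives were other scalings and filters, DESeq2 1.42.0, the deposited signal with limma 3.58.1, all 24 mice, only the groups compared, and each mouse left out. Named members were all those called, the 2 highest and 2 lowest log2 fold changes per comparison, the 3 highest and 3 lowest levels, and a few with known particulars. From each related list, up to 3 called genes per comparison were named. Members, lists and rules were chosen with earlier results of these data known.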

Additional observations from a re-analysis of the deposited data

Results flagged for a closer look

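For 26 named members and for the summed level of the 77 genes, 108 groups of values (the 4 groups of mice for each) were examined for a mouse far from the others, and 2 such values were found, where chance flags about 1 in 20 groups. Mrps21, a small-subunit protein with a bacterial homologue, had 15.2 CPM in mouse KO MR_7632, while the other 5 mice of the group had 9.25 to 11.1 CPM. Mrpl27, a large-subunit protein near the peptidyl transferase centre, had 51.8 CPM in mouse KO MR_7627, while the other 5 had 71.0 to 77.1 CPM. Neither gene was called in any comparison.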

How the results depend on the processing

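Of the members called in WT, Mrpl15, Mrpl12, Mrpl14, Mrps2, Mrpl24 and Mrpl50 passed under each of the 8 alternatives and without any 1 mouse, and in NRF2 KO so did Mrpl15, Mrpl50 and Mrps9. Scaling by library size only gave 16 calls in WT and 21 in NRF2 KO, with medians of 0.16 and 0.17 on the log2 scale; the medians of all genes moved with it, to 0.09 and 0.15. For NRF2 KO against WT on MR, all 24 mice gave 0 calls and the fit of only the groups compared gave 2, Mrpl14 and Mrps24. The interaction could not be fitted with only the groups compared. DESeq2 called 10 members in WT and 9 in NRF2 KO, and the deposited signal with limma 9 and 6. Leaving out each mouse gave 7 to 10 calls in WT, 4 to 11 in NRF2 KO, 1 in NRF2 KO against WT on MR, and 0 in the other comparisons. Medians then ran from 0.03 to 0.10 in WT, -0.01 to 0.03 in NRF2 KO, 0.02 to 0.07 between genotypes on Con, -0.03 to 0.00 on MR and -0.08 to -0.03 for the interaction. The share of all genes called in each alternative fit is not given here, so these counts of calls are not a result about the members. Mrps9 in WT was lost in 6 of the 22 fits that left out 1 mouse, Mrpl28 in 2 and Mrps18a in 14. Mrps18a was also lost under 5 of 8 alternatives, with adjusted p up to 0.56. The cause was not tested. Counts of 1 to 29 per mouse limit Mrpl23, Mrps18b and Mrps36. No paired analysis was possible because each mouse number occurs in 1 group only.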
